A study of Mus musculus with 30 samples.

Results

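The exosomes released by cultured mesenteric adipocytes were compared after lipopolysaccharide (LPS) and after phosphate-buffered saline (PBS), by their miRNA content. The comparison takes the 3 samples titled MAT-Ad-EX-LPS and the 3 titled MAT-Ad-EX-PBS, which are 6 of 30 samples in the series, and all 566 mouse miRNA probes of the 626 probes measured. Pre-adipocytes came from the stromal vascular cells of mesenteric fat (MAT), the fat around the intestine, of male C57BL6 mice labelled as fed normal chow, and were differentiated into adipocytes in culture (MAT-Ad). Diets in the series ran from 4 to 20 weeks of age, and no other age is given for the mice behind the cultures. The LPS cultures received LPS at 1 µg/ml for 24 h and the PBS cultures received PBS for 24 h. Exosomal RNA was taken from the culture supernatants, and RNA of the pelleted cells was measured in 4 LPS and 4 PBS adipocyte samples, which serve here as the source cells. The labels number the samples without stating whether separate cultures or animals lie behind the numbers, so the p-values cover the spread between samples alone, and that spread may be technical.

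Exosomes are small vesicles that cells release from their endosomal system, and they carry miRNAs, short RNAs that pair with messenger RNAs through a seed near their 5′ end and lower the output of those messages. Fat tissue is a known source of miRNAs in circulating vesicles. LPS, a bacterial wall component, acts on adipocytes through Toll-like receptor 4 and the transcription factor NF-kB. The assay attaches a tag to each miRNA by ligation and reads it with a barcoded probe, so synthetic ligation control RNAs (the LIG_POS rows) report on that step in each sample.

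The mature sequences behind the probes that the results turn on are given because the seed is what sets a miRNA's target range. All 15 looked-up probes matched an entry of RefSeq for GRCm38.p6, and an older name without an arm was read as the major arm. Capitals mark the seed, bases 2 to 8. The first 8 are those that passed the test between LPS and PBS exosomes:
miR-21 (chr11:86584120-86584141, minus strand): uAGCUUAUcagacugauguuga
miR-22 (chr11:75463772-75463793, plus strand): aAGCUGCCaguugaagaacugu
miR-23a (chr8:84208563-84208583, plus strand): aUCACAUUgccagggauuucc
miR-25 (chr5:138165332-138165353, minus strand): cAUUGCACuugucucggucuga
miR-130a (chr2:84741116-84741137, minus strand): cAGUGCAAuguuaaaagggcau
miR-148a (chr6:51269829-51269850, minus strand): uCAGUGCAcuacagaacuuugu
miR-152 (chr11:96850439-96850459, plus strand): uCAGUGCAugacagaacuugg
miR-423-5p (chr11:77078122-77078144, minus strand): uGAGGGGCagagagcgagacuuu

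Of these 8 miRNAs, miR-148a and miR-152 share the seed CAGUGCA, and the other 6 seeds each occur once among the 8. A second set is shown for contrast, since these 4 were over the detection limit in every exosome sample at nearly one level:
let-7f (chr13:48537889-48537910, minus strand, and chrX:151912353-151912374, plus strand): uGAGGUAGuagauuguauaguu
miR-142-5p (chr11:87756867-87756887, plus strand): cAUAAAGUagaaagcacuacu
miR-200b (chr4:156055685-156055706, minus strand): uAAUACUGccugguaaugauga
miR-202-5p (chr7:139957732-139957752, minus strand): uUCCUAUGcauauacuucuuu

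The next sequences belong to the brightest miRNA of the source cells, to a neighbour of miR-23a and to a probe whose signal was ordered like the ligation control:
miR-125b-5p (chr16:77646279-77646300, plus strand, and chr9:41581940-41581961, plus strand): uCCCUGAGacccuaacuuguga
miR-27a (chr8:84208727-84208747, plus strand): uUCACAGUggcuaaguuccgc
miR-467f (chr11:69635419-69635439, minus strand): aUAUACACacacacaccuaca

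The 6 samples differed in the ligation control before any miRNA was compared. LIG_POS_A read 16108, 2832 and 23141 in LPS exosomes 1, 2 and 3, and 126, 11843 and 10511 in PBS exosomes 1, 2 and 3. PBS exosome 1 stood far below the other 5 samples, and LPS exosome 2 was the next lowest. The mean log2 difference, LPS minus PBS, was 2.03 (exact permutation test, two-sided, p = 0.5) and became -0.13 without PBS exosome 1 (exact p = 1). LIG_POS_B and LIG_POS_C ranked PBS exosome 1 last as well, with LIG_POS_C at 1.08 there and at 37.7 to 518 in the other 5 samples. The positive hybridisation controls had geometric means of 1386 to 1534 in LPS exosomes and 1391 to 1502 in PBS exosomes, without such a gap. For this reason each result below is given with its value without PBS exosome 1 where that value differs in call or direction, and the part of ligation in the results was not tested.

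Total mouse miRNA signal was higher in every LPS exosome sample than in every PBS exosome sample. It summed to 14115, 33349 and 5753 in LPS exosomes 1, 2 and 3, and to 1796, 2861 and 2830 in PBS exosomes 1, 2 and 3. LPS exosome 2, with the lowest ligation control of its group, had the highest total, and LPS exosome 3, with the highest ligation control, had the lowest total of its group. The difference was 5.71-fold on the mean log2 scale (exact permutation test, two-sided, p = 0.1), where 3 against 3 samples cannot give less than 0.1. Without PBS exosome 1 it was 4.90-fold (exact p = 0.2), and per unit of LIG_POS_A it was 1.40-fold (exact permutation p = 0.9). The last value rests on PBS exosome 1: the ratio of miRNA signal to LIG_POS_A was 0.876, 11.8 and 0.249 in LPS exosomes 1, 2 and 3, against 14.3, 0.242 and 0.269 in PBS exosomes 1, 2 and 3. The ratio without PBS exosome 1 was 5.37-fold higher in LPS exosomes (exact permutation p = 0.3). In that comparison LPS exosome 2 stood highest at 11.8, and LPS exosome 3, at 0.249, lay between PBS exosomes 2 and 3. The RNA was adjusted to 30 to 40 ng/µl per the labels, and in such bulk preparations more vesicles and more miRNA per vesicle cannot be told apart.

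**Figure D1:**
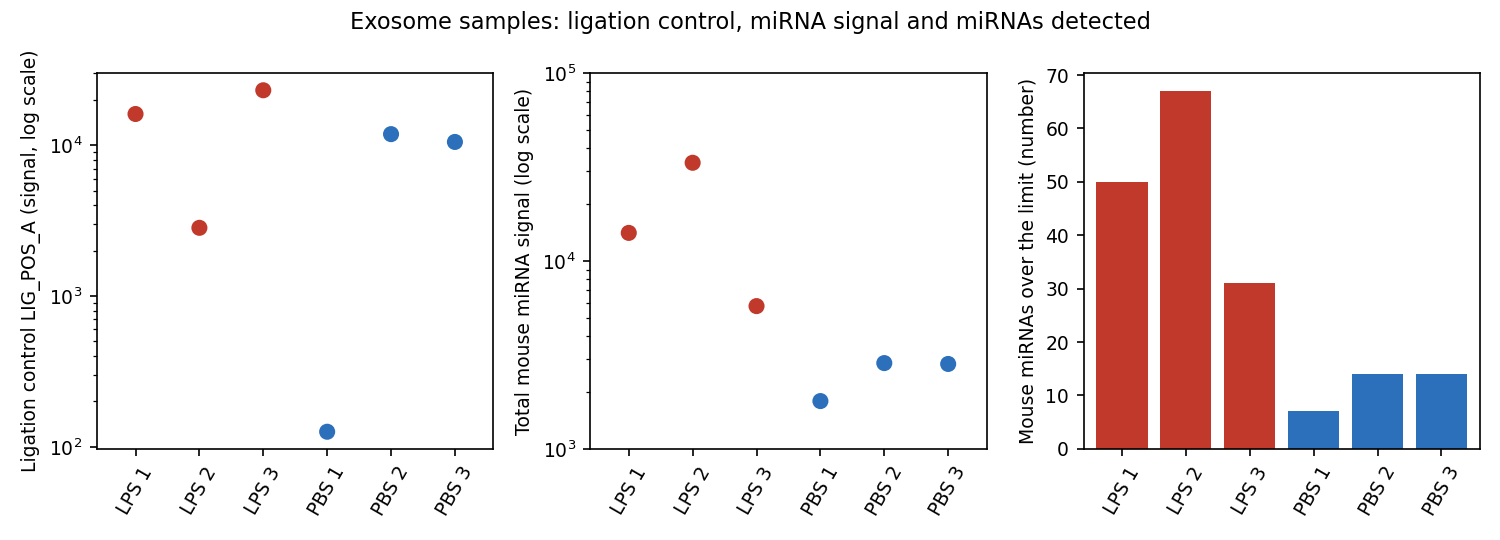
Ligation control signal (left, log scale), total mouse miRNA signal (middle, log scale) and number of mouse miRNAs over the detection limit of 29.8 (right) in each exosome sample, LPS in red and PBS in blue. Total signal and number are higher in all 3 LPS samples, while the ligation control is lowest in PBS 1 (126) and next lowest in LPS 2 (2832).

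More miRNAs were detectable after LPS. The detection limit, set at the mean plus 2 SD of 240 negative control values, was 29.8. LPS exosomes 1, 2 and 3 had 50, 67 and 31 miRNAs over it, against 7, 14 and 14 in PBS exosomes 1, 2 and 3, a mean difference of 37.7 (exact permutation test, two-sided, p = 0.1). Of the 566 probes, 488 were over the limit in no exosome sample and 78 in at least 1. Of those 78, 61 were over it in LPS exosomes only and 0 in PBS exosomes only. Of the 61, 10 were over the limit in all 3 LPS samples, 20 in exactly 2 and 31 in exactly 1, and 26 of the 61 were seen in LPS exosome 2 alone. The depth was small: counts above background came to 12194, 22679 and 6011 in the LPS exosomes and 1663, 3517 and 3490 in the PBS exosomes, so absence from a PBS sample means only that the miRNA was not detectable at this depth.

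By mean signal, to which LPS exosome 2 contributed most, 2 of the 10 brightest miRNAs were shared between the groups. By mean share of each sample's signal, which weights the samples equally, 5 of 10 were shared (miR-22, miR-466g, miR-1224, miR-1196 and miR-142-5p). In LPS exosomes the order by mean signal, from the highest, was miR-22, miR-23a, miR-21, miR-27a, miR-16, miR-148a, miR-1224, miR-29a, miR-145 and miR-2141. In PBS exosomes it was miR-142-5p, miR-466g, miR-200b, miR-1196, miR-1224, miR-22, miR-378, let-7f, miR-2183 and miR-202-5p. Of these, miR-142-5p, miR-200b, let-7f and miR-202-5p varied little across all exosome samples, PBS exosome 1 with its low ligation control included. Of the 20 brightest miRNAs of LPS-treated adipocytes, 7 were among the LPS exosome 10 and 1 was among the PBS exosome 10. miR-22 made up 24.7%, 31.0% and 6.83% of the signal in LPS exosomes 1, 2 and 3, and 3.28%, 4.46% and 2.16% in PBS exosomes 1, 2 and 3. Within the LPS 10, miR-2141 rested on LPS exosome 2, where it read 1062 against 1.16 and 1.56 in LPS exosomes 1 and 3.

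**Figure D2:**
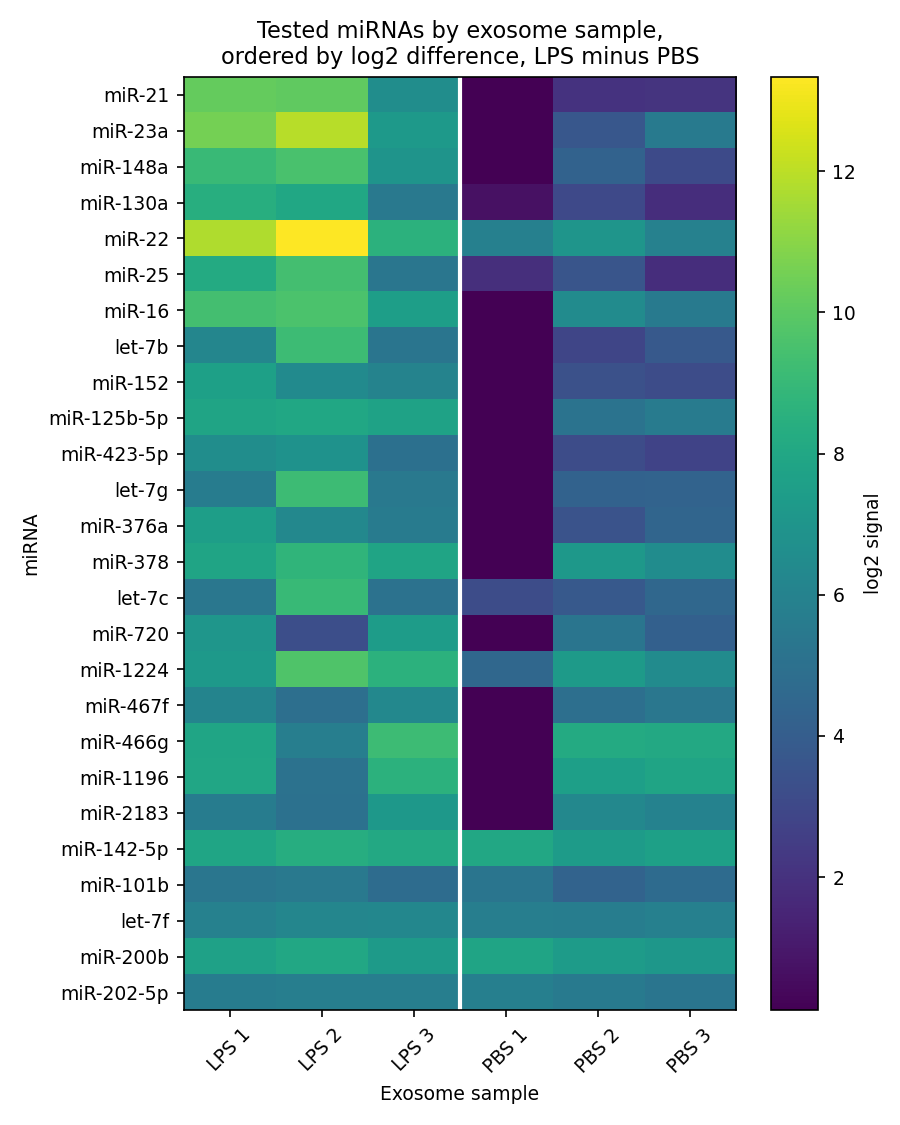
Signal (log2, colour) of the 26 tested miRNAs (rows, ordered by log2 difference from the highest to the lowest) in each exosome sample (columns), LPS samples left of the white line and PBS samples right of it. PBS 1 is at its floor for 16 of the 26, LPS 2 is the brightest of the 6 samples for 15, and the 5 bottom rows vary little across the samples.

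A row was tested when over the limit in at least 3 of the 6 samples, which left 26 of 566 miRNAs, and a miRNA could enter through its LPS samples alone. Of the 26, 10 did so, with no PBS sample over the limit, among them 6 of the 8 called miRNAs. For these the filter alone places every LPS sample above every PBS sample, so a higher LPS signal was fixed in advance. With limma on log2(value + 1) and Benjamini-Hochberg adjustment, 8 of the 26 were called higher in LPS exosomes at an adjusted p under 0.05 (30.8%) and 0 lower, with 12 at an unadjusted p under 0.05, all of them higher. With no filter 0 of 566 were called, with 40 at an unadjusted p under 0.05. In 16 of the 26 (61.5%) every LPS sample lay above every PBS sample, and in 0 every LPS sample lay below. The 16 include the 10 that entered through LPS samples alone, where the filter fixed this order. The median log2 difference over the 26 was 3.33, and 0 calls were left once samples were centred on their medians, with 7 at an unadjusted p under 0.05 by limma.

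miR-21, induced by NF-kB and STAT3 signalling and abundant in many cell types, had the largest difference among the 26. It read 1190, 1108 and 98.2 in LPS exosomes 1, 2 and 3, against 1.08, 4.07 and 4.36 in PBS exosomes 1, 2 and 3. No PBS sample was over the limit, so the filter itself kept the groups apart. The fitted log2 difference was 7.05 ± 1.14 (SE; limma adjusted p = 0.027), and with PBS values set to the limit miR-21 was at least 16.5-fold higher. Without PBS exosome 1 its log2 difference was 6.61 (limma adjusted p = 0.034).

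miR-22, an abundant miRNA of muscle and fat, was the brightest of the LPS exosomes. It read 3491, 10343 and 393 in LPS exosomes 1, 2 and 3, against 58.8, 128 and 61.1 in PBS exosomes 1, 2 and 3. All 6 samples were over the limit and the groups did not overlap, though the LPS samples spanned 26.3-fold. The log2 difference was 4.95 ± 1.28 (SE; limma adjusted p = 0.031), or 31.0-fold. Leaving out PBS exosome 1 gave 4.76, with the call lost (limma adjusted p = 0.067).

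miR-23a, transcribed together with miR-27a and miR-24 in one cluster, was second in the LPS exosomes. Its signal was 1535, 3833 and 155 in LPS exosomes 1, 2 and 3, against 1.08, 13.0 and 44.9 in PBS exosomes 1, 2 and 3. PBS exosome 3 was the only PBS sample over the limit and stayed below every LPS sample. The log2 difference was 6.46 ± 1.65 (SE; limma adjusted p = 0.031), and with values set to at least the limit the fold was 27.6. Without PBS exosome 1 the log2 difference was 5.26 and the call was lost (limma adjusted p = 0.059).

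miR-148a, which rises as adipocytes differentiate, and miR-152, of the same seed family, were also called. miR-148a read 533, 736 and 124 in LPS exosomes 1, 2 and 3, against 1.08, 19.5 and 8.42 in PBS exosomes 1, 2 and 3. miR-152 read 200.9, 87.7 and 64.7 in LPS exosomes 1, 2 and 3, against 1.08, 10.6 and 9.23 in PBS exosomes 1, 2 and 3. For both, all LPS samples were over the limit and all PBS samples under it. The log2 differences were 5.63 ± 1.14 for miR-148a (SE; limma adjusted p = 0.027) and 4.07 ± 0.89 for miR-152 (SE; limma adjusted p = 0.029), and both calls held without PBS exosome 1 (limma adjusted p = 0.034 each). The bounds were at least 11.9-fold for miR-148a and at least 3.43-fold for miR-152.

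miR-130a, a repressor of the adipocyte regulator Pparg, read 335, 254 and 43.7 in LPS exosomes 1, 2 and 3, against 1.62, 8.13 and 3.55 in PBS exosomes 1, 2 and 3. No PBS sample was over the limit, and LPS exosome 3 was the lowest LPS sample. The log2 difference was 5.03 ± 0.98 (SE; limma adjusted p = 0.027), at least 5.08-fold, and the call held without PBS exosome 1 (limma adjusted p = 0.038). miR-25, made from an intron of Mcm7, read 293, 664 and 39.8 in LPS exosomes 1, 2 and 3, against 3.78, 12.2 and 3.55 in PBS exosomes 1, 2 and 3. For miR-25 too no PBS sample was over the limit, and LPS exosome 3 lay close to it. The log2 difference was 4.92 ± 1.17 (SE; limma adjusted p = 0.029), at least 6.49-fold. The log2 difference without PBS exosome 1 was 4.69, with the call lost (limma adjusted p = 0.059).

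miR-423-5p, a miRNA commonly found in blood plasma, was the dimmest of the 8 by mean LPS signal. It read 96.8, 117 and 32.2 in LPS exosomes 1, 2 and 3, against 1.08, 8.95 and 6.79 in PBS exosomes 1, 2 and 3. LPS exosome 3 lay just over the limit and all PBS samples under it. The log2 difference was 3.74 ± 0.87 (SE; limma adjusted p = 0.029), at least 2.36-fold, and the call held without PBS exosome 1 (limma adjusted p = 0.038). In the adipocytes miR-423-5p averaged 23.9 ± 14.03 after LPS and 16.3 ± 8.60 after PBS (SD, n = 4 each), with 1 LPS sample, at 39.4, over the limit.

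**Figure D3:**
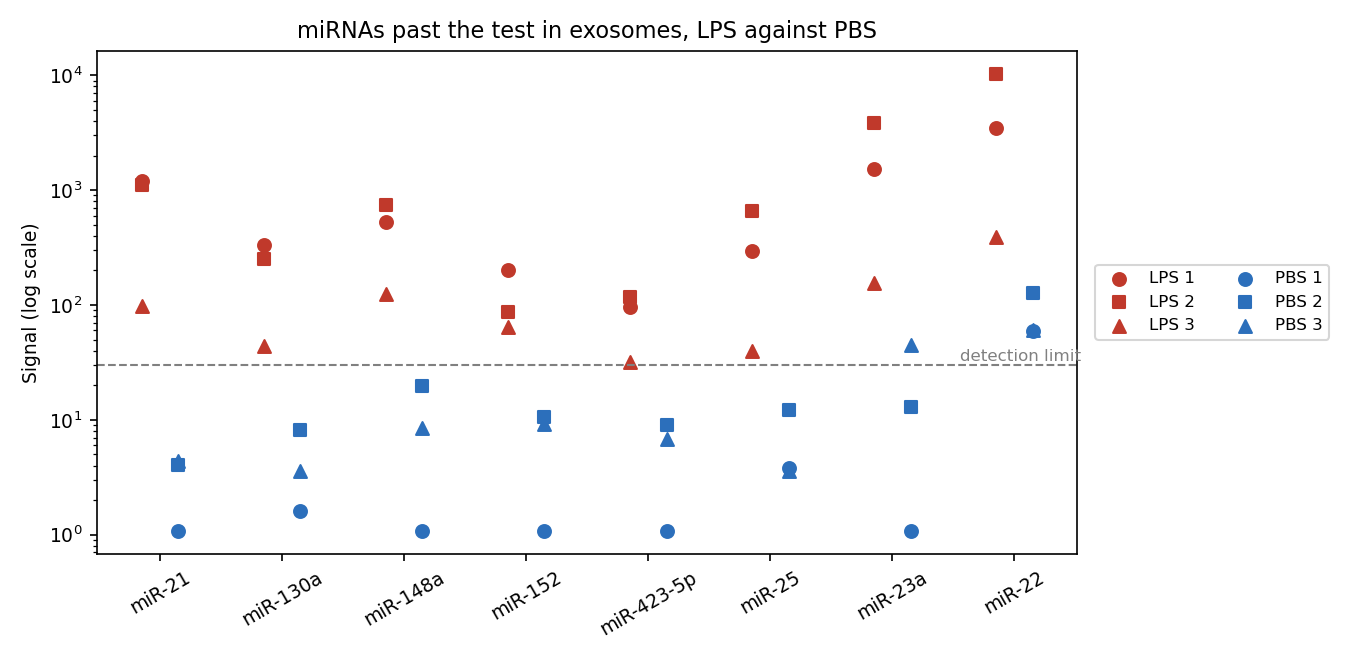
Signal (log scale) of the 8 miRNAs past the test in each exosome sample, LPS in red left of PBS in blue, with a marker shape per sample number and the detection limit of 29.8 dashed. LPS 3 is the lowest LPS sample for all 8, and PBS samples are over the limit for miR-22 (all 3) and miR-23a (PBS 3).

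All 8 differences stayed positive in the runs without 1 sample, while the number of calls varied. In all 8 every LPS sample lay above every PBS sample, so leaving out 1 sample could not change the sign. The log2 difference ran from 6.43 without LPS exosome 1 to 8.23 without LPS exosome 3 for miR-21, and from 4.48 to 5.94 without the same samples for miR-130a. For miR-22 it ran from 3.91 without LPS exosome 2 to 6.26 without LPS exosome 3, and for miR-25 from 4.05 to 6.07 without the same samples. It was lowest without PBS exosome 1 for miR-148a (4.72), miR-152 (3.28), miR-423-5p (3.04) and miR-23a (5.26), and the highest were 6.41, 4.30 and 7.78 without LPS exosome 3 for miR-148a, miR-423-5p and miR-23a, and 4.52 without PBS exosome 2 for miR-152. The count was 6 without PBS exosome 1, 3 without PBS exosome 2, 0 without PBS exosome 3, 0 without LPS exosome 1, 0 without LPS exosome 2 and 9 without LPS exosome 3 (limma adjusted p under 0.05). Scaling to LIG_POS_A, after which miR-21 and the other 7 stayed higher in LPS exosomes, left 0 calls with 2 miRNAs at an unadjusted p under 0.05.

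Below the threshold the next miRNAs were let-7b and miR-376a (limma adjusted p = 0.053 each), miR-125b-5p (0.062) and miR-16 (0.071), each with every LPS sample above every PBS sample. For let-7b and miR-376a, with no PBS sample over the limit, the filter fixed that order. let-7b read 72.5, 580 and 37.9 in LPS exosomes 1, 2 and 3, against 1.08, 7.32 and 14.1 in PBS exosomes 1, 2 and 3. miR-376a, of an imprinted cluster, read 185, 77.4 and 49.4 in LPS exosomes 1, 2 and 3, against 1.08, 11.4 and 21.4 in PBS exosomes 1, 2 and 3. miR-16, abundant in red cells and plasma, read 669, 765 and 183 in LPS exosomes 1, 2 and 3, against 1.08, 88.7 and 47.4 in PBS exosomes 1, 2 and 3. For miR-16 PBS exosomes 2 and 3 were both over the limit, and PBS exosome 1 was at its floor. In the run without PBS exosome 1 miR-125b-5p was called, at a log2 difference of 2.45 (limma adjusted p = 0.034), in place of 3.90 with all samples.

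The LPS samples did not move together. LPS exosome 3 correlated more with PBS exosomes 2 and 3 (r of 0.80 and 0.73) than with LPS exosomes 1 and 2 (0.50 and 0.14). Its r with PBS exosome 1 was 0.10. LPS exosome 3 was the lowest LPS sample in 17 of the 26 miRNAs, all 8 called ones among them, although its ligation control was the highest. In 5 miRNAs LPS exosome 2, whose ligation control was the lowest of the LPS samples, was the lowest LPS sample, and in those same 5 (miR-1196, miR-466g, miR-2183, miR-467f and miR-720) LPS exosome 3 was the highest and PBS exosome 1 the lowest of all 6. miR-466g read 236, 53.8 and 570 in LPS exosomes 1, 2 and 3, against 1.08, 294 and 269 in PBS exosomes 1, 2 and 3. miR-1196 read 249, 34.7 and 394 in LPS exosomes 1, 2 and 3, against 1.08, 190 and 227 in PBS exosomes 1, 2 and 3. For both the groups overlapped, and their log2 differences of 1.83 and 1.76 (limma adjusted p = 0.52 each) became -0.53 and -0.45 without PBS exosome 1. miR-720, now regarded as a fragment of a transfer RNA, read 135, 9.74 and 169 in LPS exosomes 1, 2 and 3, against 1.08, 37.4 and 18.2 in PBS exosomes 1, 2 and 3, again with overlapping groups (limma adjusted p = 0.26).

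The remaining tested miRNAs without a call included rows that hardly varied. miR-142-5p, from a locus active in blood cells, read 238, 321 and 273 in LPS exosomes 1, 2 and 3, against 260, 166 and 196 in PBS exosomes 1, 2 and 3. miR-200b, an epithelial miRNA, read 206, 261 and 162 in LPS exosomes 1, 2 and 3, against 232, 168 and 137 in PBS exosomes 1, 2 and 3. In these rows PBS exosome 1 was within the range of the LPS samples, although its ligation control was the lowest. let-7f ranged from 60.9 to 74.3 in LPS exosomes and from 52.1 to 57.9 in PBS exosomes. miR-202-5p ranged from 51.6 to 54.2 in LPS exosomes and from 38.4 to 56.7 in PBS exosomes. The 5 lowest fitted log2 differences of the 26 were those of these 4 and miR-101b, from 0.19 to 0.43, and none of the 5 passed (limma adjusted p of 0.50 to 0.69).

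The other arm of miR-142 did not follow its partner. miR-142-3p, the arm that defines leukocytes, averaged 1.21 ± 0.24 in LPS exosomes and 1.03 ± 0.046 in PBS exosomes (SD, n = 3 each), at the floor in both. In the adipocytes miR-142-5p read 202 to 424 after LPS and 227 to 251 after PBS, while miR-142-3p read 1.00 to 1.42 after LPS and 1.00 to 1.56 after PBS. The miR-142-5p probe thus read in one range in cells and exosomes, and its partner at the floor in both.

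The lists of miRNAs were read by their counts. They were chosen with earlier results of these data known, so the counts only describe them. Of 16 miRNAs common in blood plasma and vesicles, 6 were tested and 5 were called higher (miR-21, miR-22, miR-23a, miR-25 and miR-423-5p), beside 8 of 26 (30.8%) over all tested, with a median log2 difference of 4.94 beside 3.33 over all 26. Of the 5, miR-21, miR-25 and miR-423-5p had entered the test through their LPS samples alone. Among the untested members, miR-92a, miR-126-3p and miR-142-3p were at the floor in both groups. Of 9 let-7 members, 4 were tested and 0 called, with a median of 3.05. let-7c and let-7g were over the limit in the LPS exosomes only, with 41.2, 512 and 34.1 for let-7c in LPS exosomes 1, 2 and 3. Of 12 LPS and NF-kB responsive miRNAs, 2 were tested and 1 (miR-21) was called, and miR-155, miR-147 and miR-222 were at the floor in both groups. Of 14 miRNAs raised in adipogenesis, 2 were tested and 1 (miR-148a) was called, while miR-378 was not. Of 12 that oppose adipogenesis 1 was tested and called (miR-130a). Over the limit in at least 1 LPS exosome were 8 of the 14 and 3 of the 12, and in at least 1 PBS exosome 1 and 0. From the first list miR-26a, miR-26b, miR-103, miR-107 and miR-193b were under it in every exosome sample. Both called members, miR-148a and miR-130a, had entered the test through their LPS samples alone.

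Of 5 members of the miR-23, miR-27 and miR-24 clusters, miR-23a was tested and called, beside 8 of 26 (30.8%) called over all tested. The count describes that member alone. miR-23b and miR-27b were at the floor in both groups, and miR-24 was under the limit in every exosome sample. miR-27a, whose mature sequence lies close to that of miR-23a on the same strand, read 398, 1331 and 11.1 in LPS exosomes 1, 2 and 3, against 5.94, 1.00 and 1.00 in PBS exosomes 1, 2 and 3. With 2 of 6 samples over the limit it was not tested. miR-29a behaved likewise, at 51.6, 1261 and 3.47 in LPS exosomes 1, 2 and 3, against 1.08, 1.00 and 1.00 in PBS exosomes 1, 2 and 3. In both, LPS exosomes 1 and 2 were over the limit, as in 14 miRNAs in all, and LPS exosome 3 was under it. Of 11 members of the miR-17-92 and paralogous clusters, 1 was tested and called (miR-25), beside 8 of 26 (30.8%) called over all tested. It had entered the test through its LPS samples alone. Over the limit in at least 1 LPS exosome were 3 of the 11, and in a PBS exosome 0.

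Markers of other cells were checked for the same samples. Of 5 smooth muscle and stroma miRNAs, 4 were over the limit in at least 1 LPS exosome and 0 in a PBS exosome, with miR-214 at the floor. The source adipocytes held these 4 as well, so they do not tell other cells from adipocytes here. There miR-143, miR-145, miR-199a-3p and miR-199a-5p read at least 592, 1439, 2277 and 791 after LPS. After PBS they read at least 516, 1482, 1864 and 558. The sum of the 5 was 348, 2194 and 40.2 in LPS exosomes 1, 2 and 3, against 5.40, 5 and 9.29 in PBS exosomes 1, 2 and 3. The highest sum was in LPS exosome 2, the sample with the highest total, and its part in the results was not tested. The 5 leukocyte miRNAs summed to 243 to 334 in LPS exosomes and 170 to 269 in PBS exosomes, nearly all of it miR-142-5p. The 3 red cell miRNAs summed to 9.30 to 58.1 in LPS exosomes and 3.24 to 8.51 in PBS exosomes. Of 7 epithelial miRNAs 1 was tested (miR-200b) and 0 were called. The related miR-200a, miR-200c, miR-141 and miR-429 each averaged 1.21 in LPS exosomes and 1.03 in PBS exosomes, so miR-200b stood apart from them. The miRNAs of endothelium (2) and striated muscle (3) were under the limit in every exosome sample.

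The exosome effect was then set against that in the source cells, which asks whether LPS changed the cargo as it changed the cells. The difference of the 2 effects was tested in 14 samples on values set to at least the limit, and exosomes and cells also differ in RNA kit, which cannot be told apart from sample kind. Of 114 miRNAs, 5 had a higher LPS effect in exosomes (4.39%) and 1 a lower one (0.877%) by limma at an adjusted p under 0.05. Of the 72 miRNAs over the limit in all 8 adipocyte samples, 19 were over it in all 3 LPS exosomes, 10 in PBS exosomes 2 and 3, and 24 in no exosome.

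miR-146a, which NF-kB induces and which represses Traf6 and Irak1 downstream of Toll-like receptors, was the 1 with a lower effect in exosomes. It read 51.6, 40.6 and 15.9 in LPS exosomes 1, 2 and 3, against 8.10, 8.95 and 13.3 in PBS exosomes 1, 2 and 3. In the adipocytes it read 427, 1002, 903 and 640 after LPS, against 111, 136, 61.5 and 73.4 after PBS. The adipocyte groups did not overlap. In exosomes only LPS 1 and LPS 2 were over the limit. LPS exosome 3 and the PBS exosomes were all under it, where values have no order. With values under the limit counted as the limit, the effect in exosomes minus that in cells was -2.54 ± 0.48 on the log2 scale (SE; limma adjusted p = 0.0096). This setting raises all 3 PBS exosomes and LPS exosome 3 to the limit and so narrows the exosome effect by construction. On the values as deposited the log2 effects were 1.61 in exosomes and 2.94 in cells, a difference of -1.33 that was not called (limma adjusted p = 0.24).

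miR-125b-5p, of the lin-4 family, was the brightest miRNA of the adipocytes. It read 229, 251 and 214 in LPS exosomes 1, 2 and 3, against 1.08, 35.0 and 49.0 in PBS exosomes 1, 2 and 3. In the adipocytes it averaged 32281 ± 9703 after LPS and 30482 ± 7277 after PBS (SD, n = 4 each). The LPS exosomes were close to each other and above every PBS exosome, while the adipocyte groups overlapped. The difference of effects was 2.56 ± 0.39 (log2, SE; limma adjusted p = 0.0025), and it kept its call in all 14 runs without 1 sample.

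The other four with a higher effect in exosomes were miR-148a, miR-16, miR-23a and miR-22. With values set to the limit, their log2 differences of effects were 3.12 ± 0.68, 2.90 ± 0.69, 4.63 ± 1.09 and 4.63 ± 1.12 (SE), with limma adjusted p of 0.022 for miR-148a and 0.025 for the others. In the adipocytes miR-22 averaged 7312 ± 1812 after LPS and 5738 ± 1169 after PBS, and miR-23a averaged 1525 ± 318 after LPS and 1339 ± 321 after PBS (SD, n = 4 each). Without setting values to the limit, the call of miR-16 was lost (limma adjusted p = 0.069) and those of the other 3 and of miR-125b-5p held. These 4 kept the call in 7, 5, 4 and 5 of the 14 runs without 1 sample, and without PBS exosome 1 the count over all 114 was 2, miR-125b-5p and miR-146a. Scaling to LIG_POS_A left 0 of the 6, with 3 miRNAs at an unadjusted p under 0.05 by limma.

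**Figure D4:**
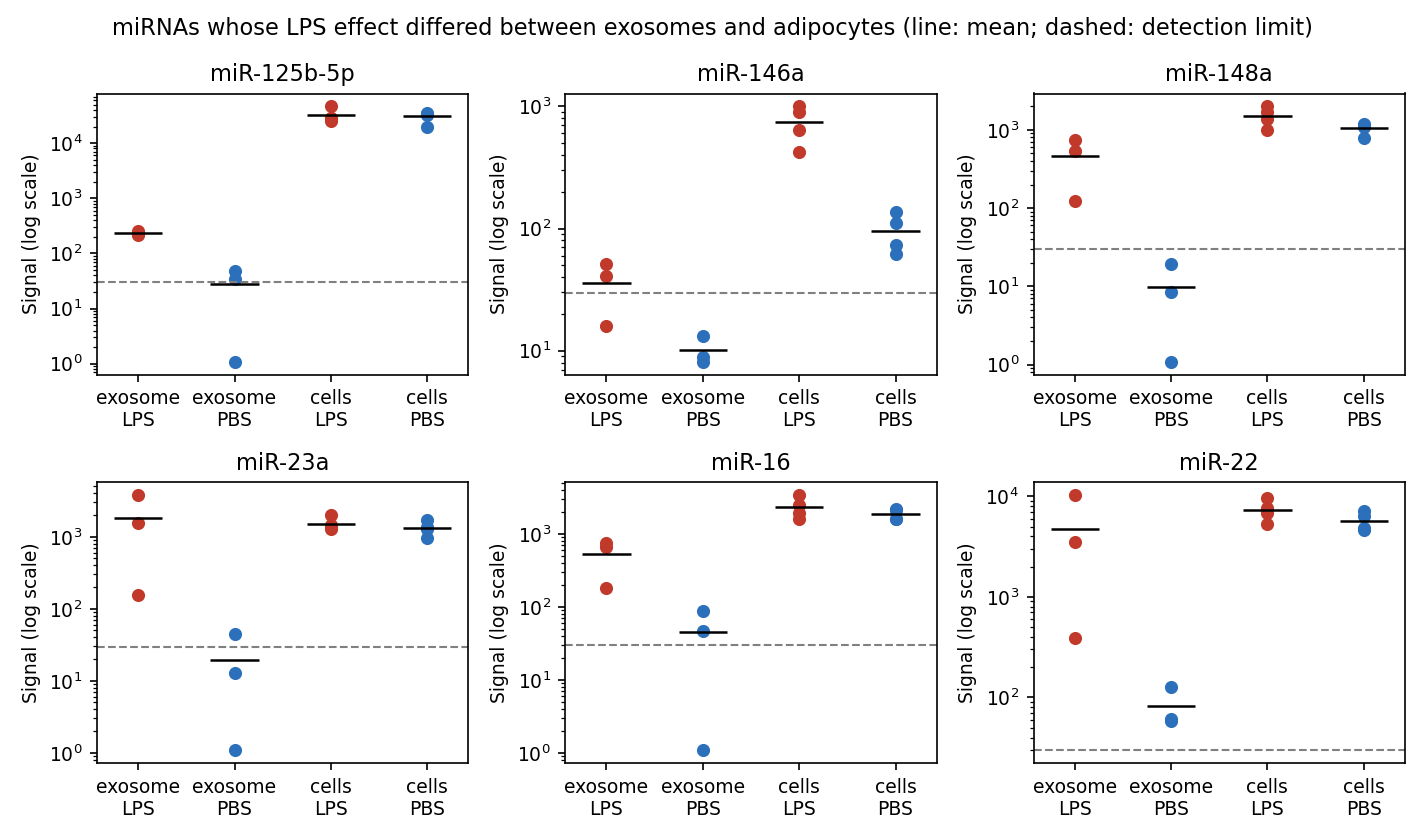
Signal (log scale) of the 6 miRNAs whose LPS effect differed between exosomes and adipocytes, in exosomes (LPS, PBS; 3 samples each) and cells (LPS, PBS; 4 samples each), with the mean as a line and the detection limit of 29.8 dashed. For miR-146a the LPS and PBS cells are apart and the exosomes lie near the limit, and for the other 5 the LPS and PBS exosomes are apart and the LPS and PBS cells overlap.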

How the data were processed

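The authors deposited 1 table of signal values for 626 probes in 30 samples. Read from the values, the deposited signal had background taken off, a floor of 1 and 1 factor per sample, 0.811 to 1.47 in the 6 exosome samples, for all but positive and negative controls. Which tool was used, how background was set and what the factor rests on is not given in the sources used here. Per the labels' protocols, exosome and cell RNA were extracted with different kits. Samples were grouped by title.

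Linear models were fitted to log2(value + 1) in limma 3.58.1 under R 4.3.3, moderated with eBayes, and p-values adjusted by Benjamini-Hochberg. The added 1 lowers the fold changes of low miRNAs against the plain ratio. In the exosome fit readings under the limit entered as deposited, so fitted folds can exceed those with values set to the limit. For miR-148a the 2 folds were 49.6 and 11.9. Exosomes were fitted on their 6 samples, and the difference of effects on 14. Single values had exact permutation tests. A fold against PBS samples all under the limit is a bound with PBS values set to at least 29.8. All 8 called miRNAs, the 10 brightest of each group, those over the limit in all samples of a group, the lowest differences and list members were named. The members and lists were chosen with earlier results of these data known, and so was the setting of values to the limit for the difference of effects. In the runs without 1 sample the tested rows are those chosen on all samples; choosing them anew on the remaining samples was run first and replaced after its counts were seen, and both are reported. The procedure was tested on simulated data. Same-numbered exosomes correlated in their deviations at -0.096, -0.43 and 0.36 and were not treated as pairs. Same-numbered adipocytes correlated at 0.48 to 0.86, and the labels do not state whether they pair. The difference of effects was fitted without pairs, and a replicate block of same-numbered samples is given among the settings below.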

Additional observations from a re-analysis of the deposited data

Results flagged for a closer look

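The LPS effect differed between exosomes and adipocytes, by a test of the difference itself (limma, 114 miRNAs), for 6 miRNAs. On the log2 scale the exosome effect minus the cell effect was 2.56 for miR-125b-5p, -2.54 for miR-146a, 3.12 for miR-148a, 4.63 for miR-23a, 2.90 for miR-16 and 4.63 for miR-22. These values count readings under the detection limit as the limit. For miR-146a all PBS exosomes were under it, which narrows its exosome effect by construction, and on the values as deposited its difference was -1.33 and not called (limma adjusted p = 0.24). For miR-16 the call was also lost on those values (limma adjusted p = 0.069). RNA kit and sample kind cannot be told apart here.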

How the results depend on the processing

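In exosomes the count of 8 was 0 with no filter (40 of 566 at an unadjusted p under 0.05), after centring on the median (7 of 26), quantile normalization (8) and ligation scaling (2), and 1 after scaling to the 100 brightest. It was 5 with the limit doubled and 15 in the fit of all 14 samples. Alternatives chosen after seeing the data gave 5 without the 2 samples of lowest ligation control, 0 without PBS exosome 1 under ligation scaling and 1 without it with values set to the limit. The replicate block gave 0 calls in exosomes, with a lowest limma adjusted p of 0.055, and 6 for the difference of effects, equal to the count without it. Runs without 1 sample gave 0 to 9 calls. With the rows chosen anew, which was the first version run, they gave 0 to 6, and 2 in place of 9 without LPS exosome 3. None of the 8 changed sign under any setting run. Since every LPS sample lay above every PBS sample in all 8, only settings that rescale the samples could have changed it.

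For the difference of effects the count of 6 was 17 (16 higher) with no setting to the limit, 3 with no filter, 18 (10 higher, 8 lower) after quantile normalization, 12 (5 higher, 7 lower) after scaling to the 100 brightest and 0 after ligation scaling. It was 2 with the authors' factor undone and 1 without the 2 samples of lowest ligation control, both chosen after seeing the data. Runs without 1 sample gave 2 to 17, with the rows chosen anew also 2 to 17. The total and the number over the limit kept their direction throughout, at 1.88 to 3.15 (log2) and 28.8 to 46.8 without 1 sample. The ligation control difference ran from -0.13 to 3.15, negative without PBS exosome 1.

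Among miRNAs, sign changes met only those not called. The sign of the called ones could change only in settings that rescale the samples. After centring on the median the log2 differences were -0.14 for let-7g, -0.23 for miR-376a, -0.45 for miR-378, -1.10 for let-7c, -1.22 for miR-720, -1.28 for miR-1224, -1.69 for miR-467f, -1.84 for miR-466g, -1.90 for miR-1196, -2.13 for miR-2183, -3.23 for miR-142-5p, -3.27 for miR-101b, -3.34 for let-7f, -3.43 for miR-200b and -3.48 for miR-202-5p. After quantile normalization they were -0.071 for miR-1224, -0.10 for miR-378, -0.13 for miR-720, -0.87 for miR-467f, -0.97 for let-7c, -1.25 for miR-1196, -1.31 for miR-466g, -1.57 for miR-2183, -2.00 for miR-142-5p, -2.20 for let-7f, -2.26 for miR-202-5p, -2.56 for miR-101b and -2.60 for miR-200b. Scaling to the 100 brightest gave -0.22 for let-7c, -0.47 for miR-1224, -0.58 for miR-467f, -0.79 for miR-466g, -0.82 for miR-1196, -1.03 for miR-2183, -2.38 for miR-101b, -2.44 for miR-142-5p, -2.49 for let-7f, -2.61 for miR-202-5p and -2.63 for miR-200b. Ligation scaling gave -0.17 for miR-2183, -1.59 for miR-142-5p, -1.59 for miR-101b, -1.67 for let-7f, -1.78 for miR-200b and -1.81 for miR-202-5p. Undoing the factor gave -0.061 for let-7f, -0.16 for miR-200b and -0.20 for miR-202-5p. Without PBS exosome 1, with values set to the limit or not and with the rows chosen anew, miR-2183, miR-1196 and miR-466g had -0.16, -0.45 and -0.53, and with ligation scaling as well -0.035, -0.33 and -0.41. Over the runs without 1 sample these 3 miRNAs reached 2.47, 2.94 and 3.04 at most. Centring takes each sample's own median off every row, so rows with smaller differences fall under 0 by construction. For the other settings the cause was not tested. The few counts above background limit every exosome value.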
